A study of Mus musculus with 6 samples.

Results

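The genes described here are 10 mouse counterparts of human Alzheimer's disease (AD) risk genes that act in myeloid cells, chosen by name: Bin1, Picalm, Cd2ap, Rin3, Inpp5d, Plcg2, Ptk2b, Abi3, Abca7 and Mef2c. The list leaves out risk genes of the TREM, Siglec and Ms4a families, Apoe and the endosomal sorting genes. All 10 had a row among the 17469 genes of the count table, and all 10 had enough counts to be tested, the lowest being 692 counts of Mef2c in a TgAPPsweOCN;Ai9 library. RNA-seq was run on tdTomato+ cells sorted from bone marrow stromal cell (BMSC) cultures of 6-month-old mice, and covered 3 control libraries (OCN-Cre;Ai9) beside 3 from TgAPPsweOCN;Ai9 mice. Adherent marrow cells were grown and passaged before sorting. Every mouse carried OCN-Cre, which expresses Cre recombinase from the osteocalcin promoter, and Ai9, a reporter that makes tdTomato after Cre has acted. The TgAPPsweOCN;Ai9 mice also carried human APPswe, the Swedish mutant of the amyloid precursor protein, driven by the CAG promoter once Cre has removed a stop cassette. None of the mice was treated. The number of animals behind a library is not given in the sources used here, so p-values measure the spread between these libraries.

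Many genes near inherited risk variants of late-onset AD are active in microglia and other macrophages. A first group handles membrane uptake: clathrin-coated pits bud from the cell surface, and the vesicles fuse with early endosomes. A second group carries signals from surface receptors such as TREM2 and Fc receptors through phosphoinositides, the lipid messengers that phospholipases cut and phosphatases convert. The remaining genes shape the actin network, move lipids across the membrane or control transcription in microglia.

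The cells were named osteoblast (OB) progenitors, but their libraries held far more transcripts of myeloid than of stromal marker genes. The summed level of 15 myeloid markers ran from 18436 to 19274 FPKM (fragment counts scaled to gene length and library size) in control and from 15837 to 19656 in TgAPPsweOCN;Ai9 libraries. The sum of 15 stromal and osteoblast-lineage markers ran from 234 to 270.5 and from 187 to 261 FPKM. None of these 30 markers was at 0 in all libraries. The endogenous osteocalcin gene Bglap was at 0.857 ± 0.461 FPKM (mean ± SD, n = 3) in control cells and at 0.273 ± 0.25 in TgAPPsweOCN;Ai9 libraries. The 10 risk genes were therefore measured in a population with abundant myeloid transcripts. In such bulk samples, fewer cells of a type and less RNA per cell cannot be told apart. Libraries held 19340810 to 22037840 estimated counts in total.

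By FPKM, Picalm was the highest of the 10 genes in control libraries and Abca7 the lowest. Picalm was at 198 ± 11.9 FPKM in control cells, above 97.9% of all genes in the table. Inpp5d (118 ± 1.61), Ptk2b (108 ± 5.05) and Bin1 (80.6 ± 14.6) followed, each separated from the next by its range over the libraries. Abi3 (56.9 ± 1.94) and Plcg2 (56.9 ± 1.66) did not differ beyond their spread, and neither did Rin3 (16.9 ± 0.592) and Cd2ap (15.7 ± 0.843). Mef2c lay between these pairs at 19.6 ± 1.12, and Abca7 was at 13.6 ± 0.399 FPKM. In TgAPPsweOCN;Ai9 cells the order of the highest 3 was the same. Mef2c moved to the lowest place, at 5.7 ± 0.444 FPKM, and Cd2ap moved above Rin3. Control libraries differed little for most of the genes, with coefficients of variation from 1.36% to 5.99% for 9 of them. The exception was Bin1 (18.1%), whose control replicate 1 stood above the other two.

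**Figure D1:**
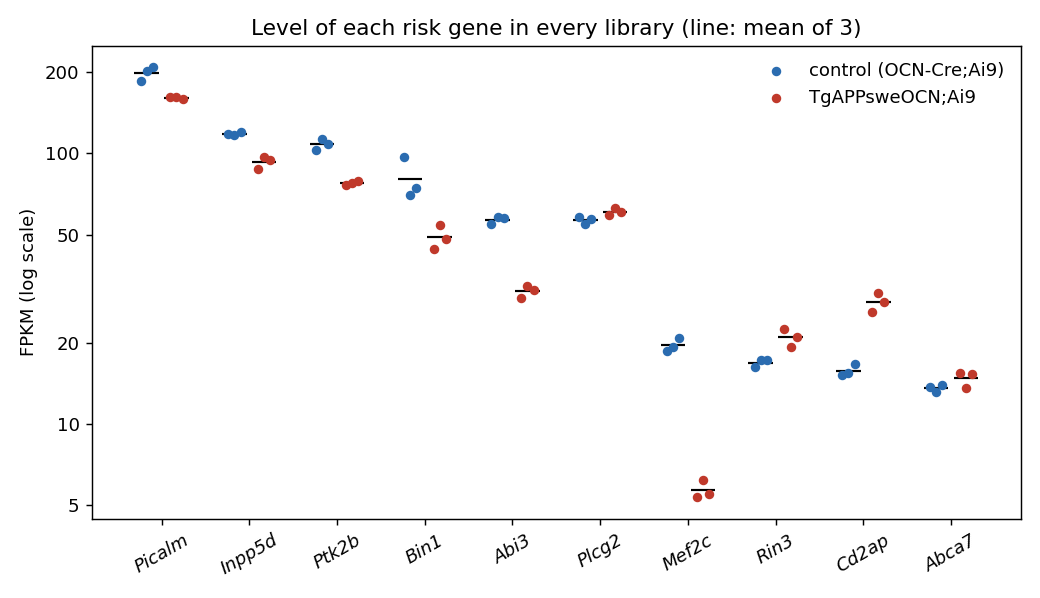
FPKM on a log axis of the 10 risk genes in each of the 6 libraries, ordered by their control mean, with 3 control and 3 TgAPPsweOCN;Ai9 points per gene and a line at each mean. Mef2c falls from 19.6 to 5.7 FPKM and Cd2ap rises from 15.7 to 28.2, while the points of Abca7 overlap.

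The genotypes were compared with edgeR's quasi-likelihood test over 12701 genes, after TMM scaling, which sets library sizes so that a trimmed mean of the log ratios between libraries is centred on 0. Changes are given as log2FC, the log2 of TgAPPsweOCN;Ai9 over control, with its standard error (SE) and Benjamini-Hochberg adjusted p over all tested genes, and a gene rose or fell where that adjusted p was at or below 0.05. Of the 10 genes, 4 rose (Cd2ap, Rin3, Abca7 and Plcg2, of which Abca7 and Plcg2 did not pass with library size only), beside 32.5% of all tested genes. Another 4 fell (Mef2c, Abi3, Bin1 and Ptk2b), beside 31.5% of all tested genes. Inpp5d and Picalm did not pass the test. The 8 genes that passed are 8 of 10, beside 64.0% of all genes in either direction. The study's own call also asks for a minimum fold change. When the change had to reach 1 in size on the log2 scale as well, 1 gene was up-regulated (Cd2ap, background 8.90%) and 1 was down-regulated (Mef2c, background 9.20%). The median log2FC of the 10 genes was -0.08, beside -0.0192 for all tested genes. The same 8 genes had log2 CPM values (CPM being counts scaled to library size, here after TMM) that did not overlap between the genotypes, beside 69.7% of tested genes. With 3 libraries against 3, an exact two-sided permutation test of a gene cannot go below p = 0.1, so the tests below rest on the fit across all genes.

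The choice of scaling mattered for genes with small changes. Scaling by library size only, in place of TMM, moved the median over all tested genes from -0.0192 to -0.234, and FPKM values are scaled in a like manner. Under it 2 of the 10 genes were higher (Cd2ap and Rin3; background 22.1%) and 6 were lower (Mef2c, Abi3, Bin1, Ptk2b, Picalm and Inpp5d; background 45.9%). Thus Cd2ap, Rin3, Mef2c, Abi3, Bin1 and Ptk2b passed the test in the same direction on both scales. Plcg2 and Abca7 passed it with TMM but not with library size only, and Picalm and Inpp5d the reverse. Of all calls, 50.7% were higher with TMM and 32.5% with library size only.

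**Figure D2:**
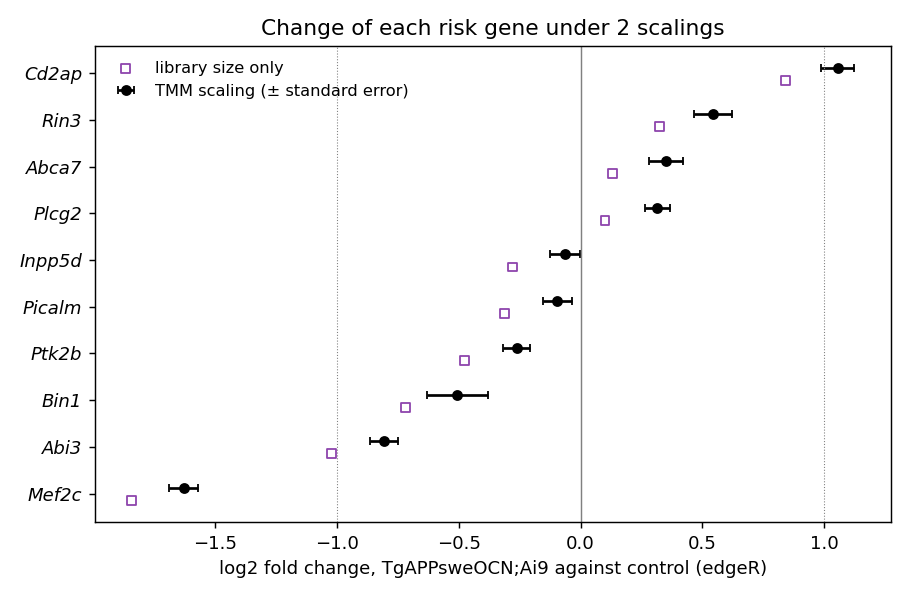
The log2FC of each risk gene, TgAPPsweOCN;Ai9 against control, from edgeR with TMM scaling (filled points, bars are ± 1 standard error) and with library size only (open squares), with dotted lines at -1 and 1. No gene changes sign between the scalings, and the squares lie to the left of the points for all 10 genes.

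Mef2c encodes a MADS-box transcription factor of muscle, neurons and myeloid cells that restrains inflammatory responses of microglia, and it showed the largest change of the list. Its FPKM values were 18.7, 19.2 and 20.8 in control, against 5.36, 6.2 and 5.53 in TgAPPsweOCN;Ai9 libraries. Every TgAPPsweOCN;Ai9 library lay far below every control library. Its log2FC was -1.63 (SE 0.058, adjusted p = 1.72e-07 from edgeR), or 3.09-fold lower. Over all alternatives it ran from -1.84 to -1.60, and 92.2% of tested genes changed by less in either direction. The gene (Entrez identifier 17260) lies at chr13:83504034-83667080 on the plus strand of GRCm38. Its relatives had smaller changes. Mef2a fell from 78.3 ± 4.71 to 51 ± 2.02 FPKM (log2FC -0.40, adjusted p = 0.000698), and Mef2d had a log2FC of 0.06 (adjusted p = 0.389), which turned to -0.16 and passed with library size only (adjusted p = 0.0398). Mef2b had few reads (0.0933 ± 0.101 FPKM in control) and was not tested. Mef2c made up 14.1% ± 0.582 of the summed FPKM of the Mef2 genes in control and 6.11% ± 0.6 in TgAPPsweOCN;Ai9 cells. A ratio of this kind is taken within a library and does not depend on how libraries are scaled. The log2 ratio of Mef2c to Mef2a counts fell by 1.22 and that of Mef2c to Mef2d by 1.69, without overlap between the genotypes.

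Cd2ap encodes an adaptor that links membrane receptors and endocytic proteins to actin, and it had the largest rise of the list. It was at 15.1, 15.4 and 16.7 FPKM in control, against 25.9, 30.5 and 28.1 FPKM in TgAPPsweOCN;Ai9 libraries. The lowest TgAPPsweOCN;Ai9 library exceeded the highest control library. The log2FC was 1.06 (SE 0.0676, adjusted p = 3.16e-06), a 2.08-fold rise. With library size only the rise was 0.84, under the study's fold threshold but still past the test (adjusted p = 2.47e-05). Its nearest relative Sh3kbp1, which encodes the endocytic adaptor CIN85, was at 45 ± 1.81 FPKM in control cells and at 38.4 ± 1.03 in TgAPPsweOCN;Ai9 cells, with a log2FC of 0.06 (adjusted p = 0.335) that turned to -0.15 and passed with library size only (adjusted p = 0.0349). Cd2ap therefore went from 25.9% ± 0.62 to 42.2% ± 1.39 of the pair's summed FPKM. The gene (Entrez identifier 12488) lies at chr17:42792951-42876665 on the minus strand.

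The promoters of Cd2ap and Mef2c, the genes with the largest rise and the largest fall, differ in base composition and are shown for that reason. Each window runs 5′ to 3′ on the gene's strand, from 250 bases before to 50 after a transcript start, as given by RefSeq on GRCm38.p6, and capitals mark CpG dinucleotides. The Cd2ap window (chr17:42876375-42876674, minus strand) holds 41 CpG dinucleotides at 77% GC, and the first of the 3 Mef2c windows (chr13:83503784-83504083, plus strand) holds 1 at 35.7% GC.
Cd2ap: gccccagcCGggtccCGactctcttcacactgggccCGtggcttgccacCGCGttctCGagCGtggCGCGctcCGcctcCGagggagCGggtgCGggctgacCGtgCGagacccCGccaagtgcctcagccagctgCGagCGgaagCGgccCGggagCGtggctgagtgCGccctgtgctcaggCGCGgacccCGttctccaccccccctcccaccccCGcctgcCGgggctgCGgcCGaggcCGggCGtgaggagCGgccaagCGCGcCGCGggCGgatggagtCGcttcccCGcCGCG
Mef2c: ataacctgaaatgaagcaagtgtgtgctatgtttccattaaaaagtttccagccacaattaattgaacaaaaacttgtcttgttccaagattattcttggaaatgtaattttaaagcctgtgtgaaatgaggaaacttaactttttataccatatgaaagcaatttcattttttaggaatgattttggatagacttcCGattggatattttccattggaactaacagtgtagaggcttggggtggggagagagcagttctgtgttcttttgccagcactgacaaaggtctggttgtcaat
The ratio of observed to expected CpG was 0.92 for Cd2ap, against 0.11, 0.61 and 0.23 for the 3 Mef2c windows and a median of 0.38 over 32851 windows of all genes. Of the other genes that rose, Plcg2 had a ratio of 0.79, Abca7 of 0.69 and Rin3 of 0.73 and 0.57 in its windows. Picalm, which did not pass the test, had the highest ratio of all (0.97, with 44 CpG dinucleotides), and Inpp5d, which did not pass either, had 0.28. Mef2c was the only gene that fell with a window here, so these ratios cannot be set against the direction of change. RefSeq windows were matched for 7 of the 10 genes, namely Picalm, Inpp5d, Plcg2, Cd2ap, Abca7, Mef2c and Rin3.

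Among the other endocytic genes, Rin3 rose and Bin1 fell, while Picalm did not pass the test. Rin3 encodes a guanine nucleotide exchange factor for Rab5, the GTPase of early endosomes. It was at 16.2, 17.2 and 17.2 FPKM in control, against 22.5, 19.3 and 21 FPKM in TgAPPsweOCN;Ai9 libraries, with no overlap. This gave a log2FC of 0.54 (SE 0.078, adjusted p = 0.000344), and 0.33 with library size only. Of its relatives, Rin2 had a log2FC of -0.08 (adjusted p = 0.419), or -0.29 with library size only (adjusted p = 0.0179), and Rin1, a much less abundant gene, had a log2FC of -0.77 (adjusted p = 0.0018). Rin3 thus rose from 38.7% ± 1.5 to 49.5% ± 3.77 of the FPKM of the 3 Rin genes. It lies at chr12:102283048-102390855 on the plus strand.

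Bin1 encodes amphiphysin 2, a BAR-domain protein that bends membranes. Its FPKM values were 97.2, 70 and 74.5 in control and 44.5, 54.2 and 48.4 in TgAPPsweOCN;Ai9 libraries. All TgAPPsweOCN;Ai9 libraries were lower, although control replicate 1 stood well above the other two. Its log2FC was -0.51 (SE 0.124, adjusted p = 0.00664), and -0.35 without control replicate 1. Bin2, the myeloid relative of Bin1, moved the other way, from 92.6 ± 4.07 to 111 ± 14.8 FPKM (log2FC 0.49, adjusted p = 0.00106), although its adjusted p reached 0.0645 among the alternatives. Bin3 had a log2FC of 0.10 (adjusted p = 0.124), and -0.11 with library size only (adjusted p = 0.104). Amph had hardly any reads (0.01 ± 0.0173 FPKM in control). The ratio of Bin1 to Bin2 in FPKM was 1.01, 0.794 and 0.797 in control and 0.454, 0.426 and 0.443 in TgAPPsweOCN;Ai9 libraries. Bin2 was thus the more abundant of the pair in 2 of 3 control libraries and in all 3 TgAPPsweOCN;Ai9 libraries, by a wider margin in the latter. Bin1 (Entrez identifier 30948) lies at chr18:32377230-32435737 on the plus strand, and 6.22% of its annotated exon bases overlap a noncoding gene, A830052D11Rik, on the opposite strand.

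Picalm encodes CALM, which brings clathrin to the membrane and sets the size of coated vesicles. It was at 185, 202 and 208 FPKM in control, against 161, 162 and 159 FPKM in TgAPPsweOCN;Ai9 libraries. These FPKM values do not overlap, whereas the TMM-scaled log2 CPM values do. The log2FC was -0.09 (SE 0.0593, adjusted p = 0.193) with TMM and -0.31 (adjusted p = 0.00156) with library size only. Without control replicate 1 it was -0.15 (adjusted p = 0.0402). Its relative Snap91, which encodes the neuronal protein AP180, was at 0.02 ± 0.02 FPKM in control, so that nearly all FPKM of the pair came from Picalm in both genotypes. Picalm lies at chr7:90130213-90213465 on the plus strand.

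Of the 3 signalling genes, 1 rose (Plcg2, not with library size only), 1 fell (Ptk2b) and 1 did not pass with TMM (Inpp5d). Inpp5d encodes SHIP1, the phosphatase of blood cells that removes the 5-phosphate from the lipid product of PI3-kinase. It was at 118, 117 and 120.1 FPKM in control, against 87.3, 96.8 and 94.8 FPKM in TgAPPsweOCN;Ai9 libraries. This gave a log2FC of -0.06 (SE 0.0611, adjusted p = 0.383) with TMM, and -0.28 (adjusted p = 0.00582) with library size only. Without TgAPPsweOCN;Ai9 replicate 1 the TMM value was -0.013. As with Picalm, the FPKM values separate the genotypes and the TMM-scaled values do not. Inppl1, which encodes the widely expressed SHIP2, fell from 69.5 ± 3.81 to 42.7 ± 1.29 FPKM, with a log2FC of -0.49 (adjusted p = 0.000179). The share of Inpp5d in the summed FPKM of both phosphatase genes was 63% ± 1.13 in control and 68.5% ± 1.5 in TgAPPsweOCN;Ai9 cells, with each TgAPPsweOCN;Ai9 library above each control library. Inpp5d (Entrez identifier 16331) lies at chr1:87620312-87720507 on the plus strand.

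The Inpp5d promoter is shown because it was the only window of these genes to hold any of the 3 motifs searched on both strands. These were GAGGAAGT, a word bound by PU.1 (the product of Spi1), a MEF2 word and an NF-kB word. They occur in 3.2%, 3.69% and 0.411% of 32851 windows of the same length. Capitals mark the PU.1 word, which starts 20 bases before the transcript start, in the window chr1:87620062-87620361 on the plus strand of GRCm38.p6.
Inpp5d: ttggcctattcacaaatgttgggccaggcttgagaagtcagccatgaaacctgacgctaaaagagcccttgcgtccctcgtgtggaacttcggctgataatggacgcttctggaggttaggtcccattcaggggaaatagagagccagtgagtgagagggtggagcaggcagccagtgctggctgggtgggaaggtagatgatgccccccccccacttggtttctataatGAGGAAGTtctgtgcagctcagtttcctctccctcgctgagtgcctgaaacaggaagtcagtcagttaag
A match of letters is a description and not a binding site. Spi1 itself, the master regulator of myeloid cells, was at 431 ± 23.2 FPKM in control cells and at 535 ± 4.14 in TgAPPsweOCN;Ai9 cells (log2FC 0.54, adjusted p = 9.37e-05).

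Plcg2 encodes phospholipase C gamma 2, which cuts a membrane phosphoinositide into second messengers downstream of TREM2 and Fc receptors. Its level was 58.3, 55.1 and 57.3 FPKM in control and 59.1, 63.1 and 60.7 FPKM in TgAPPsweOCN;Ai9 libraries. The genotypes lie close together on this scale, with a narrow gap between them. Its log2FC was 0.32 with TMM (SE 0.0517, adjusted p = 0.000748) and 0.10 (adjusted p = 0.119) with library size only. Plcg1, the widely expressed relative, was at 3.66 ± 0.291 FPKM in control and had a log2FC of 0.06 (adjusted p = 0.613), and -0.15 with library size only (adjusted p = 0.207). Plcg2 held 94% ± 0.355 of the FPKM of the pair in control and 94.9% ± 0.324 in TgAPPsweOCN;Ai9 cells. It lies at chr8:117498291-117635142 on the plus strand.

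Ptk2b encodes PYK2, a calcium-responsive tyrosine kinase that acts with integrins. It fell from 103, 113 and 109 FPKM in control to 76.5, 77.7 and 79 FPKM in TgAPPsweOCN;Ai9 libraries. The 3 TgAPPsweOCN;Ai9 values lie within a narrow band below all control values. The log2FC was -0.26 (SE 0.0553, adjusted p = 0.0031), and -0.48 with library size only. The relative Ptk2, which encodes focal adhesion kinase, rose from 6 ± 0.383 to 7.48 ± 0.661 FPKM (log2FC 0.54, adjusted p = 0.000788). The log2 ratio of Ptk2b to Ptk2 fell by 0.80 without overlap, but Ptk2b still held 91.2% ± 0.723 of the pair's FPKM in TgAPPsweOCN;Ai9 cells. Ptk2b lies at chr14:66153257-66281052 on the minus strand.

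Abi3 encodes a subunit that can take the place of ABI1 or ABI2 in the WAVE complex, which drives branching of actin. It fell from 54.7, 58.2 and 57.9 FPKM in control to 29.2, 32.2 and 31.3 FPKM in TgAPPsweOCN;Ai9 libraries. The groups were well apart. This gave a log2FC of -0.81 (SE 0.0566, adjusted p = 5.2e-06), and it reached -1.02 with library size only, past the study's fold threshold. Abi1 rose as Abi3 fell, from 76.6 ± 6.64 to 135 ± 5.04 FPKM (log2FC 1.04, adjusted p = 7.21e-06), and Abi2 rose by 0.42 on the log2 scale (adjusted p = 0.000354, up to 0.0508 among the alternatives). Abi3 thereby went from 41.1% ± 1.16 to 18% ± 1.25 of the FPKM of the 3 Abi genes, and Abi1 from 55.2% ± 1.48 to 78.5% ± 1.47. Both scalings give these directions for Abi1, Abi2 and Abi3.

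Abi3 was also the only gene of the list with fractional estimated counts, in all 6 libraries. It lies at chr11:95830074-95842476 on the minus strand of GRCm38, and 75.8% of its annotated exon bases overlap exons of genes on the opposite strand. Zfp652 covers 70.1% of them, Phospho1 41.1% and Gngt2 5.63%. Zfp652 fell as well, from 11.1 ± 1.56 to 5.08 ± 0.441 FPKM (log2FC -0.91, adjusted p = 0.000125). Gngt2 (log2FC 0.10, adjusted p = 0.225) and Phospho1 (-0.09, adjusted p = 0.88) did not pass the test. In FPKM, however, Gngt2 was lower in every TgAPPsweOCN;Ai9 library, at 120 ± 6.24 in control and 105 ± 1.85 in TgAPPsweOCN;Ai9 cells. Whether reads were counted by strand is not given in the sources used here, and the part of shared reads in the change of Abi3 was not tested.

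Abca7 encodes a lipid transporter related to ABCA1. Its FPKM values were 13.7, 13.1 and 13.9 in control and 15.5, 13.6 and 15.4 in TgAPPsweOCN;Ai9 libraries. TgAPPsweOCN;Ai9 replicate 2 lay among the control libraries. Its log2FC was 0.35 with TMM (SE 0.0699, adjusted p = 0.00229) but 0.13 (adjusted p = 0.0958) with library size only. Abca1 had a similar change, from 32 ± 2.4 to 36.7 ± 4.33 FPKM (log2FC 0.41, adjusted p = 0.00316), which also did not pass with library size only (0.20, adjusted p = 0.0969). The log2 ratio of Abca7 to Abca1 differed by -0.06 between the genotypes, less than its spread over libraries (SD 0.253 in TgAPPsweOCN;Ai9). Abca7 lies at chr10:79996494-80015572 on the plus strand.

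Ratios to a relative were compared in 12 pairs in which both genes were tested. Single tested genes did not overlap between the genotypes in 69.7% of cases, and the share for ratios of arbitrary gene pairs was not computed, so the count of pairs is a description. In 11 pairs the libraries of the genotypes did not overlap, with an exact two-sided permutation p = 0.1, the smallest possible here (Benjamini-Hochberg adjusted p = 0.109), and the pair of Abca7 and Abca1 had p = 0.8. The ratio shifted toward the risk gene for Cd2ap, Rin3 (against Rin1 and Rin2), Inpp5d and Plcg2. It shifted toward the relative for Mef2c (against Mef2a and Mef2d), Abi3 (against Abi1 and Abi2), Bin1 and Ptk2b. The shifts were largest for Abi3 against Abi1, by -1.84 on the log2 scale, and smallest among those 11 for Plcg2 against Plcg1, by 0.26.

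**Figure D3:**
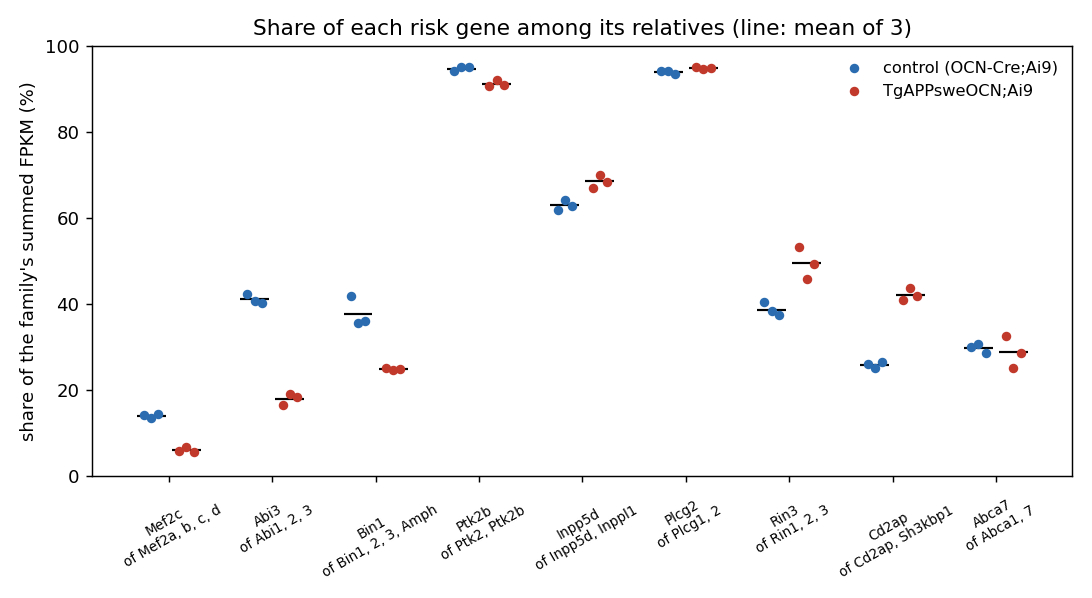
Share in percent of each risk gene in the summed FPKM of its named relatives, with 3 control and 3 TgAPPsweOCN;Ai9 libraries per gene and a line at each mean (Picalm, whose relative was near 0, is left out). Abi3 goes from 41.1% to 18% and Cd2ap from 25.9% to 42.2%, while Abca7 overlaps.

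The risk genes were set beside lists of genes that work with them. Of 37 genes of clathrin-mediated and early endocytosis, 36 had a row and 35 were tested. Of these, 21 rose and 6 fell, beside 32.5% and 31.5% of all tested genes, and the median log2FC was 0.29, beside -0.0192 over all genes. With library size only 11 were higher and 10 lower, beside 22.1% and 45.9% of all genes, around a median of 0.08 beside -0.234. Dab2, an adaptor that picks cargo for coated pits, fell from 439 ± 12.3 to 125 ± 14.4 FPKM (log2FC -1.58, adjusted p = 8.47e-07). Hip1, which ties clathrin to actin, fell from 29 ± 0.852 to 12.8 ± 2.48 FPKM (adjusted p = 0.000103). Its relative Hip1r rose from 0.14 ± 0.07 to 1.17 ± 0.0961 FPKM, a low level (log2FC 3.32, adjusted p = 4.59e-05). Ap2b1, a subunit of the AP-2 adaptor, rose from 41.4 ± 1.49 to 64 ± 1.4 FPKM (log2FC 0.85, adjusted p = 2.76e-06).

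The list of receptor signalling around Plcg2 and Inpp5d, from Src and Syk family kinases to PI3-kinase and protein kinase C, held 45 tested genes. In it 23 rose and 7 fell, together 66.7% of the list beside 64.0% of all tested genes (32.5% higher and 31.5% lower). With library size only 16 were higher and 12 lower, beside 22.1% and 45.9% of all genes. The median log2FC was 0.28 beside -0.0192 over all genes, and 0.07 beside -0.234 with library size only. Prkcb, a protein kinase C that the products of phospholipase C activate, rose from 24.6 ± 1.08 to 144 ± 5.58 FPKM (log2FC 2.79, adjusted p = 2.03e-08). Lcp2, which encodes the adaptor SLP-76 that brings phospholipase C gamma to the receptor, rose by 1.84 (adjusted p = 6.93e-08). The falls were led by Rasgrp3, a Ras activator that responds to the same lipid messenger, from 8.07 ± 0.29 to 1.05 ± 0.21 FPKM (log2FC -2.72, adjusted p = 3.5e-07). The kinase gene Tec fell from 23.6 ± 0.418 to 10.1 ± 0.527 FPKM (adjusted p = 2e-06).

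Of 25 genes of the WAVE and WASP complexes, Arp2/3 and actin capping, 18 rose and 0 fell by the edgeR test with TMM, beside 32.5% and 31.5% of all tested genes. None of the other 7 was lower at an unadjusted p under 0.05, and DESeq2 also called 0 lower, whereas 1 was lower without control replicate 2. With library size only 13 were higher and 4 lower, beside 22.1% and 45.9% of all genes. Their median log2FC was 0.37 beside -0.0192 over all genes, and 0.15 beside -0.234 with library size only. Rac2, the Rac GTPase of blood cells that activates WAVE, rose from 120 ± 12.3 to 843 ± 20.1 FPKM (log2FC 3.03, adjusted p = 6.63e-08). Cyfip1, a subunit of the WAVE complex, rose from 99.1 ± 5.57 to 293 ± 4.4 FPKM (log2FC 1.69, adjusted p = 1.72e-07). Thus Abi3 was lower in libraries in which 18 of the 25 genes of this list were higher with TMM, and 13 with library size only.

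Among 29 genes at further AD loci, 23 were tested, of which 11 rose and 4 fell with TMM, beside 32.5% and 31.5% of all tested genes. The total called was 65.2% of the list, near the 64.0% of all genes. Without control replicate 3, 7 rose, and with library size only 7 were higher and 10 lower, beside 22.1% and 45.9% of all genes. Clu, which encodes clusterin, rose from 0.8 ± 0.177 to 2.45 ± 1.25 FPKM (log2FC 1.80, adjusted p = 0.0042). Nck2, an adaptor to actin regulators, was at 2.77, 1.9 and 2.37 FPKM in control, against 1.66, 9.73 and 5.5 FPKM in TgAPPsweOCN;Ai9 libraries, and these values overlap although its log2FC of 1.47 passed the test (adjusted p = 0.0321); it did not with library size only (adjusted p = 0.0614). Fermt2, an activator of integrins, fell from 4.18 ± 0.835 to 2.13 ± 0.114 FPKM (log2FC -0.76, adjusted p = 0.00252). Ctsb, the lysosomal protease cathepsin B, fell from 5298 ± 155 to 2750.3 ± 160.1 FPKM (log2FC -0.70, adjusted p = 2.81e-05).

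**Figure D4:**
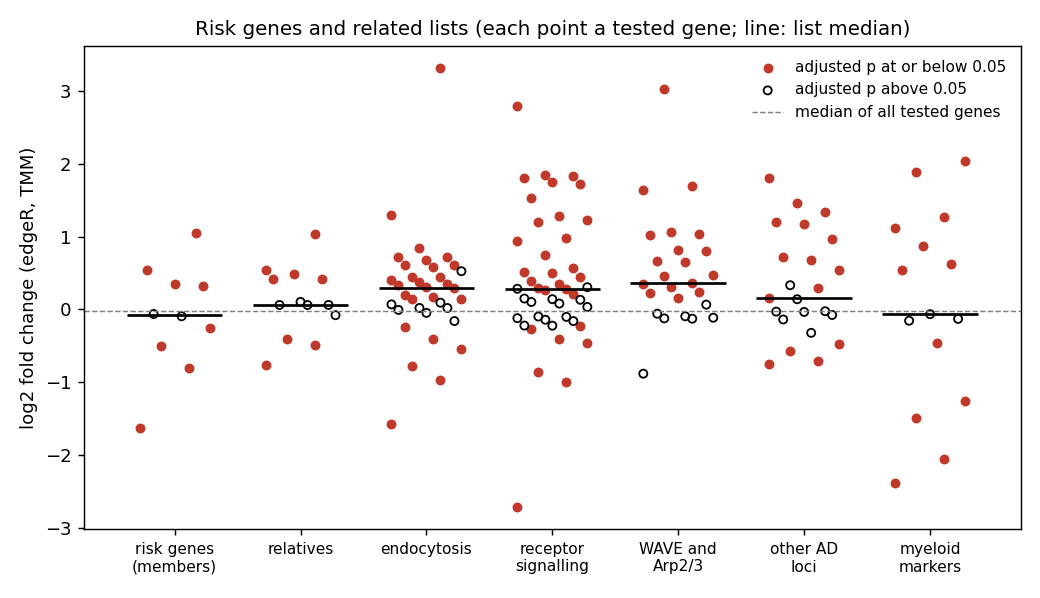
The log2FC (edgeR, TMM) of each tested gene in the list of 10 risk genes, their relatives, the related lists and the myeloid markers, filled where the adjusted p was at or below 0.05, with a line at each list's median and a dashed line at the median of all tested genes. The risk genes spread to both sides of 0 from -1.63 to 1.06, as do the myeloid markers from -2.38 to 2.04.

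Myeloid marker genes moved in both directions in the same libraries. Of the 15, 7 rose and 5 fell, beside 32.5% and 31.5% of all tested genes. Ptprc, which encodes the leukocyte antigen CD45, rose from 93.9 ± 3.22 to 124 ± 3.3 FPKM (log2FC 0.62, adjusted p = 1.69e-05). Csf1r, the receptor gene of macrophage growth factor, fell from 1213.5 ± 22.1 to 370 ± 30.9 FPKM (log2FC -1.49, adjusted p = 1.21e-06). Of the stromal and osteoblast-lineage list, 14 genes were tested, 3 rose (Col3a1, Alpl and Dcn) and 3 fell (Sparc, Sp7 and Pdgfrb), around a median log2FC of 0.23 beside -0.0192 over all genes (0.02 beside -0.234 with library size only). Dcn, which encodes the matrix proteoglycan decorin, had the largest change of them, from 0.447 ± 0.142 to 5.97 ± 4.51 FPKM (log2FC 3.92, adjusted p = 0.00137). The marker genes Col1a1 (log2FC -0.17, adjusted p = 0.261) and Runx2 (-0.14, adjusted p = 0.431) did not pass the test, but with library size only Col1a1 did (-0.38, adjusted p = 0.0344). The adjusted p of Col3a1 reached 0.0565 among the alternatives. Markers of lymphocytes summed to 1.04 to 1.57 FPKM in control and 3.42 to 3.88 in TgAPPsweOCN;Ai9 libraries, without overlap. Only 1 of these 10 markers had enough counts to be tested. Among single tested genes, 69.7% did not overlap. The sums of mast cell and basophil markers (0.97 to 1.6 and 0.83 to 1.07 FPKM), neutrophil markers (17.7 to 58.5 and 22.1 to 55.1), dendritic cell markers (16.6 to 41.5 and 8.3 to 19.1) and endothelial markers (3.86 to 5.92 and 5.12 to 6.07) overlapped between control and TgAPPsweOCN;Ai9 libraries. Single genes of these lists passed the test nonetheless. With TMM, 2 of 4 tested dendritic cell markers and 1 of 8 tested neutrophil markers rose. Of 4 tested endothelial markers 1 rose and 1 fell, and 0 of 2 tested mast cell and basophil markers passed. These counts stand beside 32.5% higher and 31.5% lower among all tested genes. Osteoclast markers summed to 37.1 to 58.6 FPKM in control and 104 to 226 in TgAPPsweOCN;Ai9 libraries, but they moved both ways. Of 6 tested, 3 rose (Mmp9, Acp5 and Ocstamp) and 2 fell (Atp6v0d2, and Ctsk with an adjusted p of 0.0372 that reached 0.138 among the alternatives). Megakaryocyte and erythroid markers, mostly Pf4, summed to 531 to 641 FPKM in control and 119 to 267 in TgAPPsweOCN;Ai9 libraries, and 3 of 5 tested fell. The share called was 42.9% of the stromal and osteoblast-lineage list, 83.3% of the osteoclast list and 60.0% of this list. Over all tested genes it was 64.0%. The part of such shifts among cell types or states in the changes of the 10 risk genes was not tested.

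The genes whose profile over the 6 libraries lay nearest to the extreme members were found by the root mean square distance of centred log2 CPM among 12691 tested genes. For Cd2ap they were Lima1 (distance 0.0399), Kctd13 (0.0418) and Bmp2k (0.0435). Lima1 encodes an actin-bundling protein and Bmp2k a kinase related to the clathrin-adaptor kinase AAK1. For Mef2c they were Nek6 (0.0366), Tifab (0.0461) and Acox3 (0.0583), with log2FCs from -1.67 to -1.57. These distances mostly restate the difference between the genotypes, which all 6 genes share with their member.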

How the data were processed

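RNA-seq of tdTomato+ cells from BMSC cultures covered 3 control and 3 TgAPPsweOCN;Ai9 libraries on the DNBSEQ-G400 platform. Reads left after rRNA and quality filtering were aligned with HISAT2. The authors deposited a table of estimated counts, which are fractional for 13.3% to 14.4% of genes per library, and FPKM values rounded to 2 decimals. The submitters' processing notes name build mm10, HISAT2 2.0.4, Bowtie2 2.2.5, RSEM 1.2.12 and DESeq2 1.4.5. A further deposited table, with the authors' own log ratio and p-value per gene, was not used here.

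Estimated counts were rounded to whole numbers and tested with the quasi-likelihood method of edgeR 4.0.16 under R 4.3.3, with filterByExpr, TMM scaling and genotype as the only term. Log2 CPM used a prior count of 2. Alternatives were RLE size factors, library size only, DESeq2 1.42.0, no filter, at least 10 counts in every library, a replicate block, limma 3.58.1 on log2-transformed FPKM (pseudocounts 1 and 0.1; also unfiltered with 1), and leaving out each library. The fit was run on simulated counts with 200 changed genes. That setting does not test the choice of scaling, since 64.0% of tested genes were called in these data. Groups came from the genotype labels. A floor of 3 counts corresponds to 0.136 to 0.155 CPM and covers counting error only.

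The members and lists were chosen with earlier results of these data known. Named were all members, their relatives, the 2 largest rises and falls per related list at an FPKM of at least 1 throughout a genotype, and the 3 nearest profiles. Zfp652, Phospho1 and Gngt2 were named after the overlap with Abi3 was seen, and the 6 called stromal and 5 called osteoclast markers after their values were seen. Siglec1 was dropped from the list of AD loci after its values were seen because it does not mark such a locus. Coordinates are those of GENCODE M21 (GRCm38, equivalent to mm10).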

Additional observations from a re-analysis of the deposited data

How the results depend on the processing

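Mef2c, Abi3, Bin1, Ptk2b, Cd2ap and Rin3 kept their direction and stayed past an adjusted p of 0.05 in all alternatives. The other members depended on the scaling. With library size only, limma on log2(FPKM + 1), limma on log2(FPKM + 0.1) and limma on log2(FPKM + 1) without a filter, in that order, Picalm was called at -0.31, -0.30, -0.30 and -0.30 and Inpp5d at -0.28, -0.35, -0.35 and -0.35. In the same order Plcg2 (0.10, 0.098, 0.0996 and 0.098) and Abca7 (0.13, 0.11, 0.12 and 0.11) were no longer called. The median log2 fold change over all genes was -0.234, -0.161, -0.219 and -0.0413 in these settings, and the cause of the changed calls was not tested. Each of them gave 2 members higher and 0 members up-regulated by at least a log2 of 1, and library size only gave 2 members down-regulated by that much. For the lists, in the same order, relatives were lower in 6, 6, 6 and 6, endocytic genes higher in 11, 12, 11 and 10 and lower in 10, 10, 10 and 11, signalling genes lower in 12, 13, 13 and 13, WAVE and Arp2/3 genes lower in 4, 4, 5 and 5, and genes of further AD loci higher in 7, 7, 7 and 7 and lower in 10, 9, 10 and 8. In limma without a filter 2 relatives and 15 signalling genes were higher. With TMM, 5 of the 13 tested relatives rose and 3 fell. Over all genes, in the same order of settings, 2806, 2829, 2830 and 2870 were higher. Lower were 5826, 5734, 5729 and 5700, of 12701 tested genes, or 17451 in limma without a filter.

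Leaving out each library gave 4 members higher throughout and 4 to 5 lower. Picalm then ran from -0.15 (called, without control replicate 1) to -0.075, Inpp5d from -0.088 to -0.013 (without TgAPPsweOCN replicate 1), and called members from -1.65 to -1.60 (Mef2c) and from 1.01 to 1.10 (Cd2ap). WAVE and Arp2/3 genes lower ran from 0 to 1, and genes of further AD loci higher from 7 to 11. On the FPKM scale the ratio of Cd2ap to Sh3kbp1 moved to 1.06, that of Abi3 to Abi1 to -1.70 and that of Abi3 to Abi2 to -1.11. The ratio of Abca7 to Abca1 ran from -0.19 to 0.06 and turned to 0.063 without TgAPPsweOCN replicate 2. The correlations of same-numbered deviations were 0.013, 0.007 and 0.141, beside -0.052 to 0.025 for the other pairs. With 3 libraries per genotype these values cannot decide whether the replicate numbers pair the libraries. The fit with a replicate block gave 7945 called genes against 8129 and changed no call among the 10 members. Depth limits the relatives Amph, Snap91 and Mef2b, with 0 to 5 counts per library.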
